A study of Mus musculus and Homo sapiens with 18 samples.

Results

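The chemokine ligands described here were the CC chemokines Ccl2, Ccl5, Ccl7, Ccl8, Ccl11 and Ccl20 and the CX3C chemokine Cx3cl1, 7 of the 55858 mouse genes measured. They were selected by gene symbol in the mouse tumour table, with transcripts summed by gene identifier, and the same identifiers were read in the table of the mouse line CUUC-G. RNA was sequenced from 18 bladder carcinoma libraries, of which the 12 mouse libraries, in 4 groups of 3, are used here. The first group comprised bladder tumours of an engineered mouse model (GEMM) that are labelled as chemotherapy-treated and relapsed. It is set against control tumours of the same model; per the treatment protocol the chemotherapy was cisplatin with gemcitabine. The other pair was CUUC-G carrying a guide that targets Igfbp5 (sgIgfbp5), the gene of an extracellular carrier of insulin-like growth factors, set against CUUC-G with a control guide (sgScr). The labels call the sgIgfbp5 libraries knockdowns and the series design calls the lines knockouts. They give neither the alleles, strain or age of the mice, nor the number of tumours or clones behind the libraries. The p-values below therefore measure the spread between these libraries, which may be technical.

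Chemokines are small secreted proteins that attract leukocytes along a gradient, held on cell surfaces by glycosaminoglycans and read by receptors that couple to G proteins. Ccl2, Ccl7, Ccl8 and Ccl11 are neighbours in the monocyte chemoattractant and eotaxin gene cluster, whose products attract monocytes, eosinophils and other cells through receptors such as Ccr2 and Ccr3. Ccl5 attracts T cells and monocytes, Ccl20 attracts Ccr6-bearing lymphocytes and dendritic cells, and Cx3cl1 is made as a membrane-anchored ligand of Cx3cr1 that the proteases Adam10 and Adam17 release. In bladder tumours, tumour cells and stroma are known sources of such ligands.

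The 7 genes lie at 4 places in the mouse genome (GRCm38, GENCODE M21). Ccl2 (ENSMUSG00000035385.6), Ccl7 (ENSMUSG00000035373.3), Ccl11 (ENSMUSG00000020676.3) and Ccl8 (ENSMUSG00000009185.3) lie on the plus strand at chr11:82035571-82037453, chr11:82045712-82047525, chr11:82057823-82062955 and chr11:82115185-82116799. Their start sites are 10.1, 22.3 and 79.6 kb from that of Ccl2 in this order for Ccl7, Ccl11 and Ccl8. Ccl5 (ENSMUSG00000035042.3) lies further along the same chromosome on the minus strand, at chr11:83525778-83530518, and Ccl20 (ENSMUSG00000026166.15) on the plus strand at chr1:83116766-83119167. The position of Cx3cl1 is given with its values. Promoter sequence is shown for Ccl8, a cluster gene close to 0 in both the control and the sgIgfbp5 libraries, and for Ccl20, whose level did not follow the cluster in CUUC-G. Each RefSeq window (GRCm38.p6, plus strand) holds 250 bases before the annotated start and 50 from the start on, 300 in all. Capitals mark motif matches. The motifs searched on both strands were GGG and CC with any 5 bases between them (an NF-kB type site), TGANTCA (AP-1), TATAAA, and GAAA followed by GAAA with any 2 bases between them (interferon response type).
Ccl8, chr11:82114935-82115234: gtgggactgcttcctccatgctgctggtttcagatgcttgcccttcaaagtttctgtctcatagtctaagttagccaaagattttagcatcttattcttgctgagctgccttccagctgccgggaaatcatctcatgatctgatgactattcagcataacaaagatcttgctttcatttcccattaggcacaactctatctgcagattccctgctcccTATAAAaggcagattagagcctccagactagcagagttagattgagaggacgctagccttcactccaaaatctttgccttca
Ccl20, chr1:83116516-83116815: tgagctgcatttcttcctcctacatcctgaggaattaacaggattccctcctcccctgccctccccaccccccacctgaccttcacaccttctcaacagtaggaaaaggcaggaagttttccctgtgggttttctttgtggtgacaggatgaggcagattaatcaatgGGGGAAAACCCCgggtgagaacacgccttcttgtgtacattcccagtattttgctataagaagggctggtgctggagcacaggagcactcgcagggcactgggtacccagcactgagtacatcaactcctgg
TATAAA began at -32 in Ccl8, counted from the start site, and occurred in 13.6% of 32851 mouse promoter windows of this length. In Ccl20, matches to the NF-kB type motif on both strands overlapped one another and began between -82 and -80; 50.8% of the windows held this motif. TGANTCA was in 7.81% and the interferon response type motif in 3.44% of the windows. Promoter sequences of Ccl2, Ccl5, Ccl7, Ccl11 and Cx3cl1 are not printed.

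The libraries were deep and alike within groups, but groups differed in ways that bear on every comparison. Totals lay between 18964942 and 21757109 estimated counts a library, and the edgeR biological coefficient of variation was 0.052 for the tumours and 0.1 for CUUC-G. Igfbp5 had 12, 8 and 10 counts in the sgIgfbp5 libraries, against 20, 51 and 43 in the sgScr libraries (edgeR adjusted p = 0.00125). A guide need not lower the transcript, so these counts check the labels in part. The Y-linked gene Ddx3y had 0 counts in the relapsed libraries, against 1531, 1478 and 1494 in the control libraries, and Xist had 9382 to 9954 counts in the relapsed libraries, against 1 to 3 in the control libraries. In CUUC-G Xist had 19829 to 36259 counts with sgIgfbp5, against 6321 to 9986 with sgScr. Between relapsed and control libraries, a difference of source that goes with these sex-linked genes cannot be told apart from relapse. This holds for the chemokine genes as for all others. The relapsed libraries were close to the sgScr libraries of CUUC-G, with 53 of 14027 genes (0.378%) at least 2-fold apart in mean log2(CPM + 1), where 19.1% were so between relapsed and control. Whether the relapsed libraries and CUUC-G come from the same cells is not given, so opposite directions in the comparisons below are not taken as independent of each other.

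Most macrophage and monocyte markers were at 0 or near 0 in every group, while the few with enough counts to test moved with Ccl2 and Ccl7. Of 12 macrophage and monocyte markers, 7 were at 0 in all relapsed libraries, among them Ptprc, Adgre1 and C1qa. In the control libraries Ptprc had 2, 0 and 0 counts, Adgre1 had 3, 0 and 0, and C1qa had 0 in each. The summed level was 27.0 to 27.5 CPM in the relapsed libraries, against 5.13 to 5.57 CPM in the control libraries. In CUUC-G this sum was 6.21 to 8.51 CPM with sgIgfbp5, against 26.4 to 28.2 CPM with sgScr. The 4 with enough counts to test, Cd14, Csf1r, Cd68 and Mrc1, were all higher at relapse (median log2 fold change 2.47) and all lower with sgIgfbp5 (median -2.64), where over all genes 36.6% were higher at relapse and 34.3% lower with sgIgfbp5. Csf1r and Mrc1 passed the count filter through the relapsed and sgScr libraries, so a difference was built into their selection. Cd14, which encodes a lipopolysaccharide co-receptor and made up most of the sum, had 21.1 ± 0.507 CPM at relapse, against 2.83 ± 0.0632 CPM in the control libraries, and 5.60 ± 1.17 CPM with sgIgfbp5, against 21.3 ± 1.37 CPM with sgScr (SD, n = 3 each). Ptprc, the pan-leukocyte antigen CD45, was at 0 in all sgIgfbp5 and sgScr libraries too. Of 10 T and NK cell markers, Cd3e, Cd3d, Cd3g and Cd2 were at 0 in every group. Trac, the 1 with enough counts to test, had 22, 25 and 31 counts at relapse, against 11, 7 and 15 in the control libraries. Its log2 fold change was 1.24 at relapse, where it was called higher, and -1.07 with sgIgfbp5, where it did not pass. Trac passed the count filter mainly through the relapsed and sgScr libraries. B cell, neutrophil, and eosinophil and mast cell markers summed to at most 2.19 CPM. The endothelial sum, carried by Kdr at its high end, was 153 to 165 CPM in the relapsed libraries, against 6.62 to 7.39 CPM in the control libraries. It was 12.7 to 14.6 CPM with sgIgfbp5, against 152 to 159 CPM with sgScr. Kdr was the 1 of 3 tested endothelial genes that was higher at relapse, while Egfl7 (log2 fold change -1.46) and Tek (-3.08) were lower there, and with sgIgfbp5 Kdr was lower (-4.29) and Egfl7 higher (1.07). Tek passed the count filter through the control libraries. Of 16 urothelial markers, Upk3a and Krt5 were at 0 in every group, and the sum was 624 to 651 CPM in the relapsed libraries, against 31.6 to 38.7 CPM in the control libraries. It was 154 to 182 CPM with sgIgfbp5, against 670 to 755 CPM with sgScr. The urothelial markers did not all move alike. Of 10 tested at relapse, 6 were higher, 1 was lower and 3 did not pass. Of 11 tested with sgIgfbp5, 3 were higher, 7 were lower and 1 did not pass. Fibroblast markers, led by collagen genes, summed to 8620 to 8780 CPM in the relapsed libraries, against 19400 to 19900 CPM in the control libraries, and to 4810 to 5430 CPM with sgIgfbp5, against 9140 to 9630 CPM with sgScr. Of 10 fibroblast markers tested at relapse 4 were higher and 6 lower, and of 9 tested with sgIgfbp5 2 were higher and 7 lower. Over all genes tested, 36.6% were higher and 36.9% lower at relapse, and 36.5% were higher and 34.3% lower with sgIgfbp5. Lum and Fap passed the count filter at relapse through the relapsed libraries, and Fap and Thy1 in CUUC-G through the sgScr libraries. A difference was thus built into their selection. Pdgfra, which encodes a PDGF receptor, had 108 ± 3.84 CPM at relapse, against 11.2 ± 1.96 CPM in the control libraries, and 3.35 ± 0.383 CPM with sgIgfbp5, against 105 ± 5.82 CPM with sgScr (SD, n = 3 each). The part of these markers in the chemokine levels was not tested.

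The first comparison asked how the ligands differed between relapsed and control tumours. The monocyte chemoattractants Ccl2 and Ccl7 were 94.5-fold and 34.3-fold higher at relapse, Ccl8 and Ccl11 were detected at low levels where the control libraries had 1 and 0 counts, and Ccl20 was higher at a low level. Ccl5 and Cx3cl1 did not pass the test. Of the 6 members with enough counts to be tested, 4 were higher and 0 lower at an edgeR adjusted p under 0.05. Over all 14373 genes tested 73.5% passed, 36.6% higher and 36.9% lower, so passing alone says little here. The 4 members were at least 4-fold higher, as were 5.77% of the genes tested, while 4.53% were at least 4-fold lower. The members' median log2 fold change was 3.60, against 0.002 over all genes. Ccl8 and Ccl20 passed the filter on low counts through the relapsed libraries, where they were high. In bulk RNA, fewer cells of a type and less RNA per cell cannot be told apart.

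Ccl2, the main ligand of Ccr2 on monocytes, had 482.3, 479.7 and 471.2 CPM in the relapsed libraries, against 5.244, 4.837 and 5.078 CPM in the control libraries. Each relapsed library stood far above every control library. The log2 fold change was 6.56 ± 0.05 (SE, n = 3 each; edgeR adjusted p = 2.14e-34), and 1.15% of the genes tested changed at least as much in either direction. Ccl7, a ligand shared by several monocyte and eosinophil receptors, had 423.8, 442.6 and 419.2 CPM in the relapsed libraries, against 11.67, 13.30 and 12.52 CPM in the control libraries. These groups did not overlap either, and the spread within each was small beside the gap. The log2 fold change was 5.10 ± 0.05 (SE, n = 3 each; edgeR adjusted p = 2.25e-32), a size reached by 1.95% of genes.

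Ccl8, which in the mouse is a ligand of Ccr8, had 32, 42 and 60 counts in the relapsed libraries, against 1, 0 and 0 in the control libraries. The ratio of the summed counts was 135 (exact 95% interval 23.8 to 5360, counting error only). The edgeR log2 fold change was 6.62 ± 0.71 (SE, n = 3 each; adjusted p = 3.33e-09) and 8.46 without control replicate 1, the only control library with a count, so it is no bound. Ccl11, the eosinophil attractant eotaxin, had 10, 6 and 4 counts in the relapsed libraries, against 0 in each control library, at least 6.7-fold higher with a floor of 3 counts over the control group. Ccl11 fell below the count filter and is given no test. For each of the 4 cluster genes, every relapsed library was thus above every control library, though the levels were far apart, with Ccl11 under 1 CPM. This also held for Ccl5 and Ccl20. The share of all genes whose groups did not overlap was not computed, while 73.5% passed the edgeR test.

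The ligands outside the cluster moved less. Ccl20 had 20, 13 and 11 counts in the relapsed libraries, against 3, 6 and 1 in the control libraries. These counts are few, but the groups did not overlap. The log2 fold change was 2.10 ± 0.62 (SE, n = 3 each; edgeR adjusted p = 0.00386), and 2.85 without control replicate 2, the highest control library. Ccl5 had 2.843, 2.789 and 3.236 CPM in the relapsed libraries, against 2.508, 2.261 and 1.559 CPM in the control libraries. All 3 relapsed libraries were above the control libraries, but the gap was small beside the spread among controls, and the log2 fold change of 0.48 ± 0.26 (95% interval -0.06 to 1.02; edgeR adjusted p = 0.0997) did not pass. Cx3cl1 (ENSMUSG00000031778.14) lies on the plus strand of another chromosome, at chr8:94772009-94782427. It had 16.66, 16.83 and 18.83 CPM in the relapsed libraries, against 20.84, 17.67 and 19.81 CPM in the control libraries. The groups overlapped, and the log2 fold change was -0.16 ± 0.09 (95% interval -0.35 to 0.03; edgeR adjusted p = 0.13). Without control replicate 2, it was -0.23 with an edgeR adjusted p of 0.0425.

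**Figure D1:**
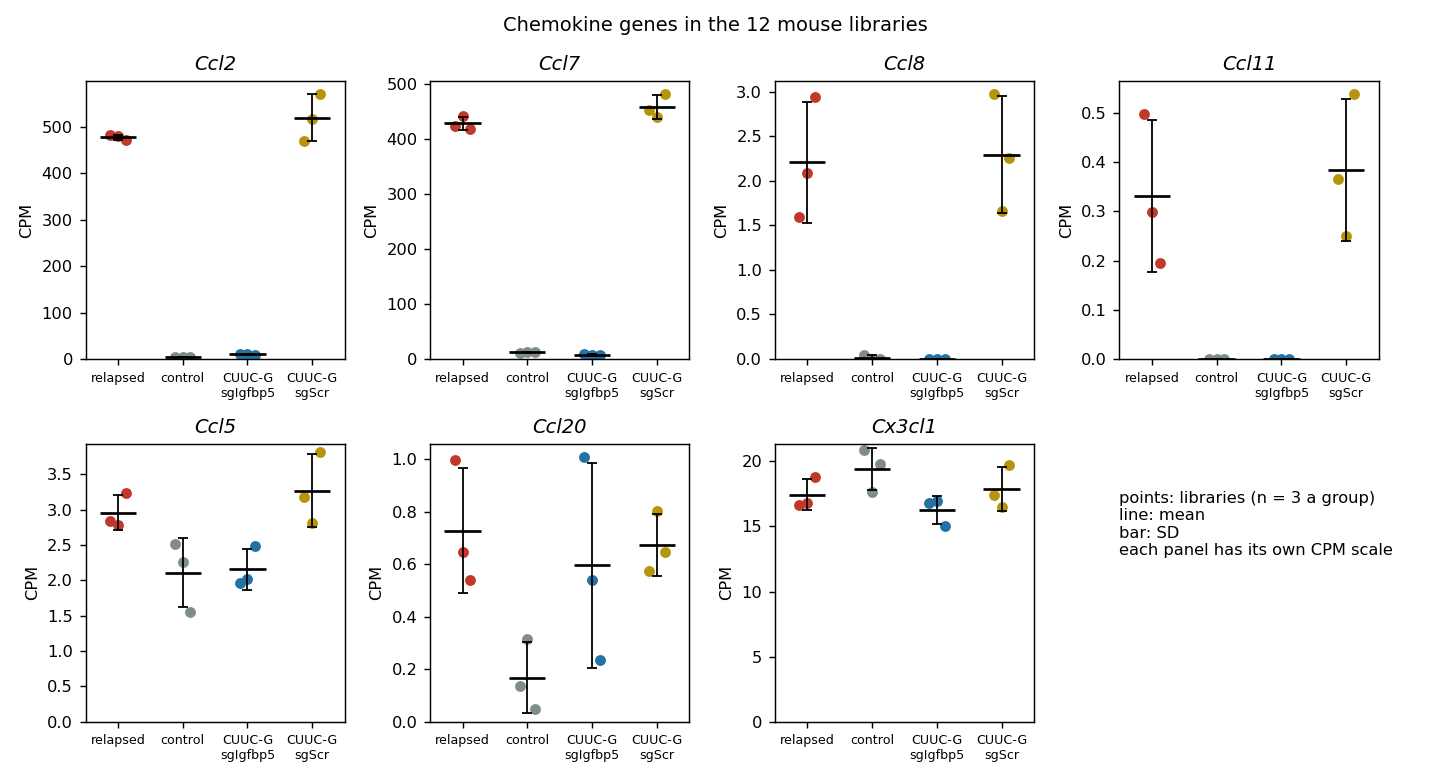
CPM of the 7 chemokine genes in each library (points), with the mean (line) and SD (bar) of the 3 libraries of each group and a CPM axis of its own in each panel. Ccl2, Ccl7, Ccl8 and Ccl11 are high in the relapsed and sgScr libraries and low or at 0 in the control and sgIgfbp5 libraries, while Cx3cl1 lies between 15.03 and 20.84 CPM in all 12.

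The second comparison asked what differed when Igfbp5 was targeted in CUUC-G. Ccl2 and Ccl7 were 49.7-fold and 62.7-fold lower with sgIgfbp5, and Ccl8 and Ccl11 had no count in any sgIgfbp5 library. Ccl5 was lower by a small margin, and Ccl20 and Cx3cl1 did not pass the test. Of 6 tested members, 4 were lower and 0 higher. Over all 14553 genes tested 70.8% passed, 36.5% higher and 34.3% lower. Ccl2, Ccl7 and Ccl8 were at least 4-fold lower, as were 7.94% of the genes tested, while 4.4% were at least 4-fold higher. The members' median log2 fold change was -3.12, against 0.059 over all genes. Ccl8 passed the count filter through the sgScr libraries.

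Ccl2 had 11.11, 11.26 and 8.973 CPM in the sgIgfbp5 libraries, against 469.8, 518.0 and 570.6 CPM in the sgScr libraries. All sgIgfbp5 libraries were far below all sgScr libraries, and the log2 fold change was -5.64 ± 0.12 (SE, n = 3 each; edgeR adjusted p = 3.01e-11). Ccl7 had 8.431, 6.492 and 7.0 CPM with sgIgfbp5, against 452.4, 440.9 and 481.9 CPM with sgScr. Its groups were as far apart (log2 fold change -5.97 ± 0.11, SE, n = 3 each; edgeR adjusted p = 1.41e-11). Changes of at least this size were seen in 1.49% of genes for Ccl2 and 1.25% for Ccl7.

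Ccl8 had 0 counts in each sgIgfbp5 library, against 57, 33 and 42 in the sgScr libraries, at least 46.8-fold lower (edgeR adjusted p = 1.1e-05). Ccl11 had 0 counts in each sgIgfbp5 library, against 7, 5 and 10 in the sgScr libraries, at least 7.81-fold lower and below the count filter. Both were therefore detected in every sgScr library and in no sgIgfbp5 library. For Ccl5 the values were 1.969, 2.016 and 2.490 CPM with sgIgfbp5, against 3.180, 2.810 and 3.819 CPM with sgScr. The groups did not overlap, and the log2 fold change was -0.59 ± 0.23 (95% interval -1.10 to -0.09; edgeR adjusted p = 0.0361). This call was lost with DESeq2 (adjusted p = 0.0815), with scaling by library size only (0.0789), with no count filter (0.0663) and without sgIgfbp5 replicate 1 (0.0814), sgIgfbp5 replicate 2 (0.0561), sgScr replicate 1 (0.0586) or sgScr replicate 3 (0.134).

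Ccl20 had 20, 11 and 5 counts with sgIgfbp5, against 11, 16 and 12 with sgScr. The sgIgfbp5 libraries spread beyond the range of the sgScr libraries on both sides (log2 fold change -0.19 ± 0.50, 95% interval -1.30 to 0.92; edgeR adjusted p = 0.745). Without sgIgfbp5 replicate 3 it was 0.16. Cx3cl1 had 16.81, 16.97 and 15.03 CPM with sgIgfbp5, against 17.41, 16.51 and 19.74 CPM with sgScr. These groups overlapped (log2 fold change -0.14 ± 0.11, 95% interval -0.38 to 0.10; edgeR adjusted p = 0.281).

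**Figure D2:**
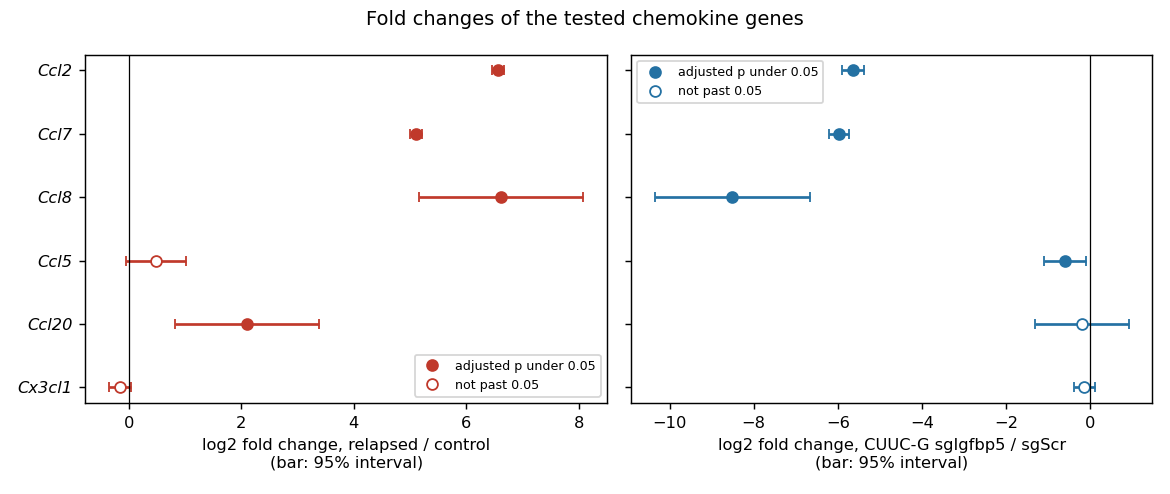
Log2 fold changes of the 6 tested chemokine genes, relapsed over control (left) and sgIgfbp5 over sgScr (right), with 95% intervals and filled points where the edgeR adjusted p was under 0.05. Ccl2, Ccl7 and Ccl8 lie far from 0 in both panels, on opposite sides, and the intervals of Cx3cl1 include 0 in both.

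Set per length, as TPM, the order of the ligands depended on the group. In the relapsed libraries Ccl2 led with 1308 ± 17.8 TPM (SD, n = 3), followed by Ccl7 with 1208 ± 33.3 TPM. Far below came Ccl5 with 17.6 TPM, Ccl8 with 14.6 TPM, Cx3cl1 with 10.03 TPM, Ccl20 with 2.12 TPM and Ccl11 with 0.603 TPM, where Ccl5 and Ccl8, and Ccl8 and Cx3cl1, overlapped between libraries. In the control libraries Ccl7 led with 38.1 ± 2.45 TPM (SD, n = 3), ahead of Ccl2 with 15.1, Ccl5 with 13.5 and Cx3cl1 with 10.1 TPM, and each of these 3 overlapped its neighbour in the order. Ccl20, Ccl8 and Ccl11 were below 1 TPM on average there. Ccl2 and Ccl7 together made up 97.9% to 98.4% of the summed TPM of the 7 genes at relapse, against 65.2% to 72.8% in the control libraries.

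In CUUC-G with sgIgfbp5 the order was Ccl2 with 27.5 ± 2.36, Ccl7 with 19.7 ± 2.46 (SD, n = 3), Ccl5 with 10.7, Cx3cl1 with 7.37 and Ccl20 with 1.69 TPM, with no overlap between neighbours and with Ccl8 and Ccl11 at 0. With sgScr it was Ccl2 with 1331 ± 39.7, Ccl7 with 1207 ± 53.1 (SD, n = 3), Ccl5 with 16.4, Ccl8 with 13.0, Cx3cl1 with 8.69, Ccl20 with 1.88 and Ccl11 with 0.669 TPM. Here only Ccl5 and Ccl8 overlapped. The summed TPM of the 7 genes was 64.7 to 70.2 with sgIgfbp5, against 2557 to 2601 with sgScr. It was 2524 to 2597 in the relapsed libraries, against 73.9 to 80.2 in the control libraries.

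The balance between Ccl2 and Ccl7 was not the same in the low groups. The ratio of Ccl2 to Ccl7 TPM was 1.106, 1.054 and 1.091 in the relapsed libraries, against 0.44, 0.357 and 0.399 in the control libraries. Ccl7 exceeded Ccl2 in every control library and in no relapsed one. The mean log2 ratio differed by 1.45 (exact permutation test, two-sided, p = 0.1, n = 3 each, the smallest p that 3 against 3 can give). With sgIgfbp5 the ratio was 1.291, 1.693 and 1.253, against 1.014, 1.146 and 1.156 with sgScr. These groups did not overlap, and their mean log2 ratios differed by 0.34 (exact permutation test, two-sided, p = 0.1, n = 3 each).

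**Figure D3:**
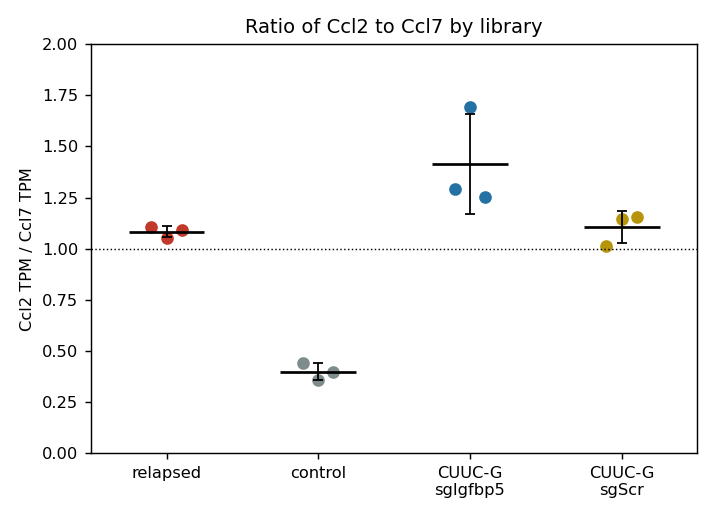
Ratio of Ccl2 to Ccl7 TPM in each library (points), with the mean (line) and SD (bar) of 3 libraries a group and a dotted line at equal levels. The control libraries lie at 0.357 to 0.44 and all other libraries above 1.

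The cluster genes changed in a stretch of chromosome 11 where little else was measured. Within 500 kb of Ccl2 to Ccl8 there were 6 other protein-coding genes. Of these Asic2, Gm17268, Ccl12, Ccl1 and Tmem132e had 0 counts in all 12 libraries, and 5530401A14Rik had 4 counts over the tumour libraries and 3 over the CUUC-G libraries. None was tested. Gm17268 overlaps Ccl2 on the opposite strand, and the libraries were made with a stranded kit per the protocol. Ccl12, a close relative that lies between Ccl11 and Ccl8, was not detected, although its neighbours on both sides were in the relapsed and sgScr libraries. Around Ccl5, 13 of 25 neighbouring genes were tested at relapse, with 4 higher and 6 lower, and 12 with sgIgfbp5, with 6 higher and 2 lower. Around Cx3cl1, 16 of 23 were tested in each comparison, with 4 higher and 7 lower at relapse and 7 higher and 5 lower with sgIgfbp5. Around Ccl20, 2 of 19 were tested in each comparison. There 0 were higher and 2 lower at relapse, and 2 were higher and 0 lower with sgIgfbp5. Over all genes tested, 73.5% passed at relapse and 70.8% with sgIgfbp5, so these counts say little about the neighbours.

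**Figure D4:**
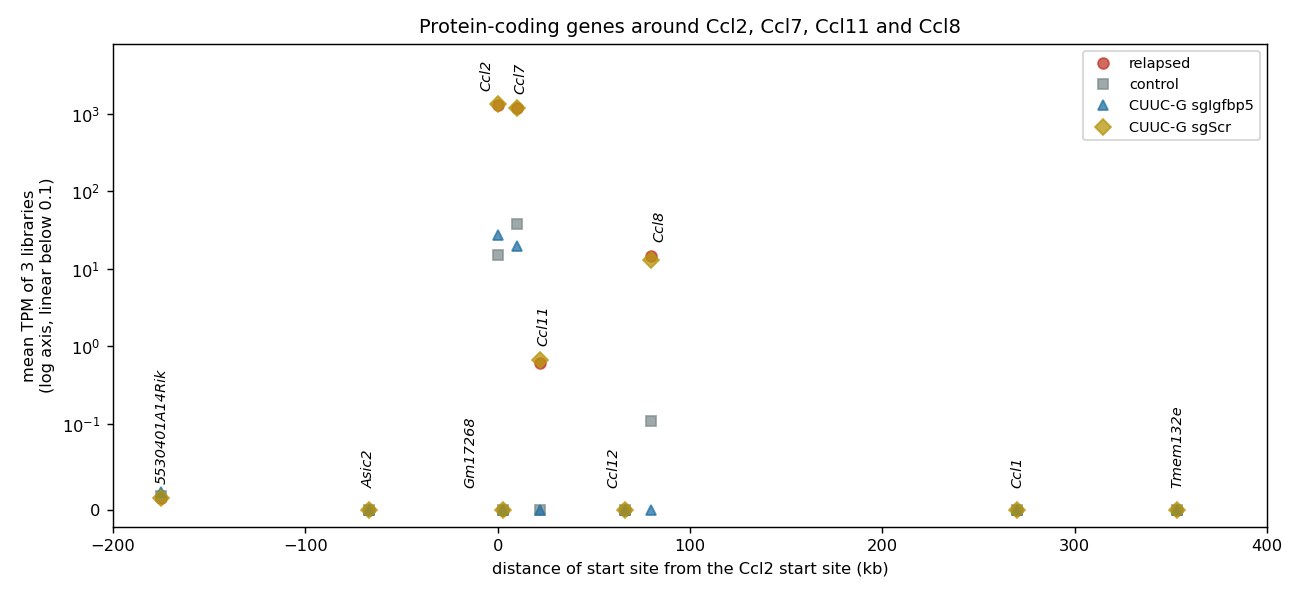
Mean TPM of 3 libraries a group (log axis, linear below 0.1) of the protein-coding genes within 500 kb of Ccl2, Ccl7, Ccl11 and Ccl8, against the distance of each start site from that of Ccl2 in kb. The cluster genes reach 1308 TPM (Ccl2) in the relapsed libraries, and 5 neighbours are at 0 in every group.

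The transcripts behind the tumour values were mostly the main coding forms. Ccl2-201, the coding transcript, made up 98.3% to 98.6% of Ccl2 TPM in the relapsed libraries, against 99.33% to 100% in the control libraries. Ccl2-202, annotated as a retained intron, had 212.9, 224.01 and 249.407 estimated counts in the relapsed libraries, against 1.212, 0 and 0 in the control libraries. For Cx3cl1, the full-length Cx3cl1-201 made up 79.49%, 100% and 63.83% of TPM in the relapsed libraries, against 100%, 89.99% and 100% in the control libraries. In relapsed replicate 3, 7.002 counts given to the short Cx3cl1-204 were worth 22.86% of the gene's TPM, so the Cx3cl1 TPM of that library, 13.02, rests in part on few reads. The Ccl20 counts, 20 at most, were given to Ccl20-202 in relapsed replicates 1 and 3 and to Ccl20-203 in the other tumour libraries, apart from 1.001 counts for Ccl20-201 in relapsed replicate 3.

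Few of the other CC chemokines were expressed. Of 16 in the tables, 4 had enough counts at relapse, with 0 higher, 3 lower and a median log2 fold change of -0.77, against 0.002 over all genes. Of all genes tested, 36.6% were higher and 36.9% lower there. Ccl25, known as a thymus and gut chemokine, had 4.79 ± 0.68 CPM in the relapsed libraries, against 8.87 ± 1.09 CPM in the control libraries (SD, n = 3 each; log2 fold change -0.89 ± 0.16; edgeR adjusted p = 1.42e-05). With sgIgfbp5 it had 10.8 ± 0.713 CPM, against 5.08 ± 0.328 CPM with sgScr (SD, n = 3 each; log2 fold change 1.09 ± 0.14; edgeR adjusted p = 2.29e-05). Ccl25 thus fell where Ccl2 and Ccl7 rose and rose where they fell. Ccl28, a mucosal chemokine, fell by 1.82 on the log2 scale at relapse, was under 1 CPM on average in every group, and was not tested in CUUC-G. It passed the count filter through the control libraries. Ccl27a was lower at relapse (-0.64 ± 0.20) and did not pass in CUUC-G (0.38 ± 0.22); it belongs to a family of near-identical copies whose reads can be split, so its values are uncertain. Ccl9, which attracts myeloid cells, did not pass in either comparison, with log2 fold changes of 0.05 and -0.08. In CUUC-G, 3 of the 16 were tested, with 1 higher, 0 lower and a median of 0.38, against 0.059 over all genes. Of all genes tested, 36.5% were higher and 34.3% lower there.

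Receptors for the 7 ligands were almost absent. Ccr2, Ccr3, Ccr6 and Ccr8 had 0 counts in all 12 libraries, and Cx3cr1 had 0 counts in the relapsed and control libraries. Of 16 receptors listed, 3 were tested in each comparison, Ackr3, Ccr7 and Ccr10, none of them named above as a receptor of the 7 ligands. At relapse 2 were higher and 1 lower (median log2 fold change 5.36, the value of Ackr3). With sgIgfbp5 1 was higher and 2 lower (median -3.19, the value of Ccr7). Over all genes tested, 36.6% were higher and 36.9% lower at relapse, and 36.5% were higher and 34.3% lower with sgIgfbp5. The atypical receptor Ackr3, which takes up Cxcl12 rather than CC chemokines, had 37.5 ± 1.16 CPM in the relapsed libraries, against 0.925 ± 0.419 CPM in the control libraries (SD, n = 3 each; log2 fold change 5.36 ± 0.16; edgeR adjusted p = 1.89e-21). With sgIgfbp5 it had 0.812 ± 0.0952 CPM, against 39.6 ± 1.13 CPM with sgScr (SD, n = 3 each; log2 fold change -5.59 ± 0.13; edgeR adjusted p = 7.61e-11). Ccr7, the lymph node homing receptor, stayed under 1 CPM on average in every group. It had 24, 17 and 17 counts in the relapsed libraries, against 0, 0 and 1 in the control libraries, and 0, 3 and 3 counts with sgIgfbp5, against 18, 14 and 22 with sgScr, and it passed the count filter through the relapsed and sgScr libraries only, so that a difference was built into its selection (edgeR adjusted p = 2.29e-06 and 0.000839). Ccr10 went the other way, with log2 fold changes of -1.55 ± 0.56 at relapse and 2.74 ± 0.58 with sgIgfbp5 (SE, n = 3 each; edgeR adjusted p = 0.0149 and 0.00136). Its levels were low, at 0.314 CPM at relapse against 0.924 CPM in control, and 1.19 CPM with sgIgfbp5 against 0.17 CPM with sgScr. It passed the count filter mainly through the control and the sgIgfbp5 libraries, so here too a difference was built into its selection.

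Several cytokines that induce chemokine genes, and their receptors, moved with Ccl2 and Ccl7, and others moved against them. At relapse 14 of 18 tested were higher and 4 lower (median log2 fold change 0.56), and with sgIgfbp5 3 were higher, 12 lower and 3 did not pass (median -0.63). Over all genes tested the medians were 0.002 and 0.059, with 36.6% higher at relapse and 34.3% lower with sgIgfbp5. The 4 that were lower at relapse were the receptor genes Il17ra (-0.59), Il17rc (-0.89), Ifngr1 (-0.73) and Tlr2 (-1.21), of which Il17ra (0.66), Il17rc (0.28) and Ifngr1 (0.58) were higher with sgIgfbp5. Il6, an inflammatory cytokine, had 21.35, 20.72 and 20.84 CPM at relapse, against 3.694, 4.522 and 3.469 CPM in the control libraries. With sgIgfbp5 Il6 had 0.6058, 0.2951 and 0.6577 CPM, against 17.77, 17.46 and 18.83 CPM with sgScr. The groups lay far apart in both comparisons. Il1a, an alarmin of epithelial cells, had 181, 206 and 220 counts at relapse, against 0, 3 and 0 in the control libraries, and 3, 0 and 1 counts with sgIgfbp5, against 155, 201 and 161 with sgScr. Il4ra, the receptor chain through which interleukins 4 and 13 induce Ccl11, had 209 CPM at relapse, against 28.8 CPM in the control libraries, and 12.3 CPM with sgIgfbp5, against 236 CPM with sgScr. All of these passed the edgeR test in both comparisons. Il1a passed the count filter through the relapsed and sgScr libraries, so a difference was built into its selection. The ligands Tnf, Il1b, Ifng, Il17a and Il13 averaged under 1 CPM in every group.

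Transcription factors of chemokine genes and mRNA decay factors were expressed in every group. Of 22 transcription factors, 14 were higher and 5 lower at relapse (median log2 fold change 0.43), and with sgIgfbp5 9 were higher and 9 lower (median 0.04), against 36.6% of all genes higher at relapse and 34.3% lower with sgIgfbp5. Sp1 (-0.74 and 0.76), the NF-kB subunit gene Relb (-0.42 and 1.06) and Irf1 (-0.31 and 0.44) were lower at relapse and higher with sgIgfbp5 on the log2 scale, and Nfkb2 was higher in both comparisons (0.36 and 0.49). Nfkbiz, which encodes an atypical IkB protein that switches on secondary NF-kB targets, had 113 ± 3.13 CPM at relapse, against 18.2 ± 1.06 CPM in the control libraries, and 13.4 ± 1.65 CPM with sgIgfbp5, against 104 ± 11.2 CPM with sgScr (SD, n = 3 each). At relapse Nfkbia (2.15 ± 0.06) and Bcl3 (2.61 ± 0.08), further IkB family genes, and Fosl1 (1.05 ± 0.05), an AP-1 subunit, were higher on the log2 scale. With sgIgfbp5 Cebpd (-3.08 ± 0.10) and Fosl1 (-1.59 ± 0.08) were lower (SE, n = 3 each). Zc3h12a encodes Regnase-1, a nuclease that degrades cytokine mRNA. It had 43.6 ± 0.652 CPM at relapse, against 4.14 ± 0.748 CPM in the control libraries, and 3.61 ± 0.172 CPM with sgIgfbp5, against 49.6 ± 3.92 CPM with sgScr (SD, n = 3 each). Of the 9 decay genes, 6 were higher and 2 lower at relapse (median 0.19), and 0 were higher and 4 lower with sgIgfbp5 (median -0.06). With scaling by library size only, 2 were higher and the median was 0.05 there.

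Chemokines are cut and held outside the cell. Of the proteases that cut or shed them, with their inhibitors, 9 of 11 tested were higher and 1 lower at relapse (median log2 fold change 0.50), and 0 of 10 were higher and 9 lower with sgIgfbp5 (median -0.82; with scaling by library size only, 1 was higher and 8 lower). Over all genes tested, 36.6% were higher and 36.9% lower at relapse, and 36.5% were higher and 34.3% lower with sgIgfbp5. Mmp3, a metalloprotease known to cleave CC chemokines, had 91.4 ± 3.21 CPM at relapse, against 0.103 ± 0.0891 CPM in the control libraries, and 1.58 ± 0.238 CPM with sgIgfbp5, against 89.9 ± 7.23 CPM with sgScr (SD, n = 3 each). Mmp8, neutrophil collagenase, had 42, 41 and 63 counts at relapse, against 0 in each control library, and 0 counts in each sgIgfbp5 library, against 54, 41 and 34 with sgScr. Mmp8 passed the count filter through the relapsed and sgScr libraries. Mmp3 did so through the relapsed libraries in the comparison with control, so a difference was built into the selection of both. Mmp2 followed the same directions, with log2 fold changes of 1.92 ± 0.04 and -3.02 ± 0.08 (SE, n = 3 each). Of the 12 glycosaminoglycan carriers, 7 were higher and 5 lower at relapse (median 0.30), and 2 were higher and 8 lower with sgIgfbp5 (median -0.45). The syndecans differed among themselves at relapse, with log2 fold changes of 1.84 ± 0.04 for Sdc1, 1.96 ± 0.04 for Sdc4 and -1.52 ± 0.04 for Sdc2. With sgIgfbp5 they were -1.54 ± 0.08 for Sdc1 and -0.71 ± 0.07 for Sdc4.

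**Figure D5:**
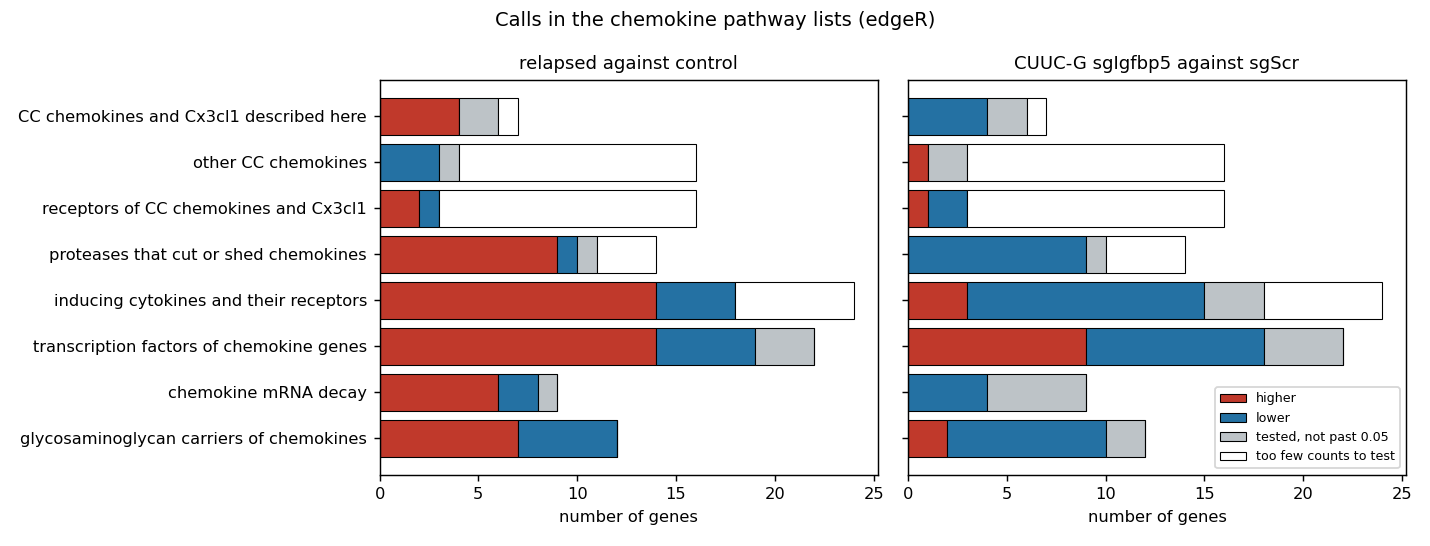
Number of genes higher, lower, tested without passing, and with too few counts to test in each chemokine gene list, relapsed against control (left) and sgIgfbp5 against sgScr (right). Of the receptors 13 of 16 had too few counts in each comparison, while all 22 transcription factors were tested.

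The genes whose levels followed each ligand most closely over the 12 libraries were found by the root mean square (RMS) difference of log2 CPM, centred within each table, over 10023 candidate genes. For Ccl2 they included the neutrophil chemokine gene Cxcl1 (0.494) and the protease inhibitor gene Slpi (0.494). For Ccl7 they were Ackr3 (0.346), the Wnt pathway gene Dkk2 (0.367) and Tnfrsf9 (0.396), against 0.539 for Ccl2. For Ccl8 they were Nrn1 (0.314), the complement gene C3 (0.341) and the transferrin gene Trf (0.359), against 0.646 for Ccl7. These genes were picked as the closest of 10023, so lying closer than another member is largely built into the selection. With its few counts, Ccl8 also depends on the prior count in this measure. The closest to Ccl5 was Brd9 (0.142), to Ccl20 Zfp239 (0.432) and to Cx3cl1 Aspscr1 and Sh3gl1 (0.057 each). Genes that vary little lie close together in this measure, as Ccl5 and Cx3cl1 do (0.335 from each other).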

How the data were processed

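Poly(A) RNA was sequenced from stranded libraries, per the labels' protocols, and quantified with Salmon, per the submitters' processing notes (version not given in the sources used here). The authors deposited estimated counts and TPM (abundance per length, scaled to 1000000 per library) for 147828 transcripts of the tumours, summed here to 55858 genes, and for the same gene identifiers in CUUC-G, where deposited counts were whole numbers. In 153 CUUC-G values the count was 0 with a TPM above 0, so they are rounded estimates. CUUC-G columns marked mI were taken as sgIgfbp5 because the labels mark targeted human libraries hI; nothing in the table itself states it. Columns matched to no sample numbered 0. The human libraries were not analysed here. Estimated counts were rounded.

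The test was edgeR 4.0.16 (R 4.3.3), quasi-likelihood, two-sided, with TMM scaling, filterByExpr, robust dispersion and Benjamini-Hochberg adjustment over all genes tested, threshold 0.05, on the 6 libraries of each comparison. Standard errors are the absolute log2 fold change over the square root of F. CPM uses TMM-scaled totals. Exact 95% intervals and floors of 3 counts over a group cover counting error only. No pair of libraries agreed within sampling noise. Alternatives were RLE factors, library size only, DESeq2 1.42.0, other count filters, dispersion not robust, limma 3.58.1 on log2(TPM + 1) or log2(TPM + 0.1), coding transcripts only, a replicate block and each library left out. Positions are from GENCODE M21, another release than the authors' by its identifier versions, and promoters from RefSeq. The genes named were all members and, per list and comparison, up to 4 by p, of which some are given by count only or not reported here, any other CC chemokine or receptor of at least 1 CPM, and up to 3 most like genes per member whose average log2 CPM reached 2 (RMS taken on log2 CPM, prior count 2). Members and lists were chosen with earlier results of these data known.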

Additional observations from a re-analysis of the deposited data

How the results depend on the processing

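The number of members past the threshold was 4 at relapse (3 to 5 over 17 alternatives, 4 to 5 with a library left out) and 4 with sgIgfbp5 (3 to 5 over 16, 3 to 4 with a library left out). Of 196 recomputed fold changes of members, 187 kept their direction and side of the threshold. Over all alternatives run, Ccl2 and Ccl7 kept direction and call, with library-left-out log2 fold changes of 6.52 to 6.58 and 5.05 to 5.14 at relapse and -5.75 to -5.57 and -6.10 to -5.94 with sgIgfbp5. The exceptions were Ccl5 with sgIgfbp5, which lost its call in 7 of 16, Cx3cl1 at relapse, which gained one without control replicate 2, and Ccl20 with sgIgfbp5, not past the threshold, which ranged from -0.81 to 0.16 with a library left out. Ccl11, under the count filter, had fitted log2 fold changes of 5.76 at relapse (edgeR without the filter, adjusted p = 0.00219) and -5.95 with sgIgfbp5 (edgeR adjusted p = 0.000413), which depend on the prior count, of 5.19 and -5.47 with DESeq2 (adjusted p = 0.0046 and 0.00198), and of 0.67 and -0.73 with limma on log2(TPM + 1) (adjusted p = 0.0156 and 0.0056). Library size alone moved the median of all genes with sgIgfbp5 by 0.111, to 6043 higher and 4389 lower, and log2(TPM + 1) moved it at relapse by -0.12, to 3529 higher and 5139 lower.

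No pairing by replicate number was seen. The correlations of deviations between same-numbered libraries were 0.013, 0.015 and 0.006 at relapse and 0.036, 0.093 and -0.082 in CUUC-G. Those between CUUC-G libraries of different numbers reached -0.144 and 0.129. With 3 libraries a group these values cannot exclude a pairing by design. With the number as a block, 4 members were called in each comparison, and 10472 and 10037 genes in all. Depth limited Ccl8, Ccl11 and Ccl20, which had 60 counts at most in a library, and whether libraries of a group are separate tumours or cultures is not given.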
